A study of Mus musculus with 48 samples.

Results

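Trimethylation of lysine 4 of histone H3 (H3K4me3) was mapped in limb progenitors of mice at postnatal day 3, and 2759 of 50795 merged H3K4me3 regions (5.43%) were called in WT cells but in no KO list. These WT-only regions were chosen from the authors' peak lists. Peaks of all 6 H3K4me3 lists were merged where they shared at least 1 base, and a region was kept if it held a peak of 1 or more WT lists and of no KO list. A further 13244 regions (26.1%) held peaks of KO lists alone and 34792 held peaks of both genotypes. The KO cells came from Ptip f/f;Col2a1-cre mice, in which Cre is driven by the control region of Col2a1, the main collagen gene of cartilage. The WT cells came from Ptip f/f mice, so both groups carried the floxed Ptip alleles and the KO mice alone carried Cre. All mice were C57BL/6, and cells had been sorted from limbs as skeletal stem cells (SSC) or as the bone, cartilage and stromal progenitors labelled pBCSP (the pre-stage) and BCSP. Each of the 6 combinations had 1 H3K4me3 list, 1 H3K4me1 list, 2 H3K27ac lists and 2 RNA libraries. How many animals were pooled, and whether replicates are separate animals, is not stated in the labels. The p-values therefore describe the spread between these libraries, which may be technical.

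H3K4me3 is deposited by methyltransferase complexes of the COMPASS family and marks the starts of active genes, most strongly at CpG-rich promoters. H3K4me1 marks enhancers, and H3K27ac marks promoters and enhancers in use. Ptip, now named Paxip1, encodes an adaptor protein of the MLL3/MLL4 complexes, which are best known for H3K4me1 at enhancers. A merged region that lacks a KO peak need not lack the mark in KO cells, since a peak list holds what passed the caller's threshold in 1 library.

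A few gene starts lay in such regions, and 4 are printed here because their genes recur in the RNA results, beside the start of Paxip1, which was called in all 6 lists. Each sequence is the RefSeq window of the build GRCm38.p6, from 250 bases before to 50 bases after the annotated start, written on the gene's strand with CpG dinucleotides in capitals. The windows are chr11:78323948-78324247 on the plus strand for Aldoc and, on the minus strand, chr11:120731972-120732271 for Cbr2, chr7:79386978-79387277 for Rlbp1, chr11:69666121-69666420 for Cd68 and chr5:27791501-27791800 for Paxip1.
Aldoc: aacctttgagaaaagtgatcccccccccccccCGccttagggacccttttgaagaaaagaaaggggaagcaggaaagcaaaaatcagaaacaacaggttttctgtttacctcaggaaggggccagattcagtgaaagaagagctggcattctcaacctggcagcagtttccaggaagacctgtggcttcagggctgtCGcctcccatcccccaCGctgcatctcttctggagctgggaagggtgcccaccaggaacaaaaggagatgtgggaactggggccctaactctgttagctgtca
Cbr2: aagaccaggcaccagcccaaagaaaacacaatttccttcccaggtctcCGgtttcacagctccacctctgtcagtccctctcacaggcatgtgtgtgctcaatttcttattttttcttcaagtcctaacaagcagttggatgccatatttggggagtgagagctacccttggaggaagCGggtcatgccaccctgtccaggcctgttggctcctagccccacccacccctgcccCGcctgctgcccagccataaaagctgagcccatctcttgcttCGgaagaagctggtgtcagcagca
Rlbp1: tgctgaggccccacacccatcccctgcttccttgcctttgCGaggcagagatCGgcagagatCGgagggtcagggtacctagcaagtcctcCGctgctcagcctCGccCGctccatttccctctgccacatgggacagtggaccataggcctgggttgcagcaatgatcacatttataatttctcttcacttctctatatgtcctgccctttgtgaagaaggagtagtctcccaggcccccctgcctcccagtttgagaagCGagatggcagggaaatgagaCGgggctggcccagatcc
Cd68: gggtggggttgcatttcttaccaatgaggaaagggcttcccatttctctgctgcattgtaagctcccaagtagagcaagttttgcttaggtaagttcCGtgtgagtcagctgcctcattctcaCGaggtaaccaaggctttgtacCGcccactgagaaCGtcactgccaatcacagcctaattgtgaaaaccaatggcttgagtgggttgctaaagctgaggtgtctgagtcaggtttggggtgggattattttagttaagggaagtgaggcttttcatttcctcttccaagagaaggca
Paxip1: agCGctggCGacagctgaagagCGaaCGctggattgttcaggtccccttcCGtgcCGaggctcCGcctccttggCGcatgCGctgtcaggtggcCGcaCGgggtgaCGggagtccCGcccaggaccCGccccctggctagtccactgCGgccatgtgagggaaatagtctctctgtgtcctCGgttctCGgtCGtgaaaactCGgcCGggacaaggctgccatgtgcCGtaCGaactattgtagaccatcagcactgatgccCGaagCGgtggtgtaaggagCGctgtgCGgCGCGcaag

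Of the members, Aldoc held 3 CpGs, Cbr2 and Cd68 held 4 each and Rlbp1 held 8, while the Paxip1 window held 28. The Aldoc start also lay within 1000 bases of a KO peak, so its window is not among the 120 that follow. Over 120 windows at a WT-only region and at no region called in KO, the median was 5 CpGs (quartiles 3 and 8), against 20 (11 and 28) over 17154 windows at regions of both genotypes and 3 over 14893 windows at no H3K4me3 region. Windows with 10 or more CpGs made up 20.0% of those at WT-only regions, 17.8% of those at regions called only in KO, 77.9% of those at regions of both genotypes and 43.5% of all windows. CpGs were counted once, since the dinucleotide reads alike on both strands, and a count describes the window and not the factors bound there.

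Most WT-only regions were called in SSC and in a single list. The SSC WT list alone held 1799 of them (65.2%), the BCSP WT list alone 490 (17.8%) and the pBCSP WT list alone 206 (7.47%). Another 220 regions were called in a pair of WT lists and 44 (1.59%) in all 3. The lists themselves differed in length, with 42399 peaks in SSC KO and 33510 in SSC WT, 25468 in pBCSP KO and 28612 in pBCSP WT, and 38500 in BCSP KO and 32132 in BCSP WT. The pBCSP pair, in which the KO list is the shorter, gave 5311 WT-only regions when taken alone, the SSC pair 2435 and the BCSP pair 2656, so most pBCSP WT peaks without a pBCSP KO peak were met by a KO peak of another population.

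**Figure D1:**
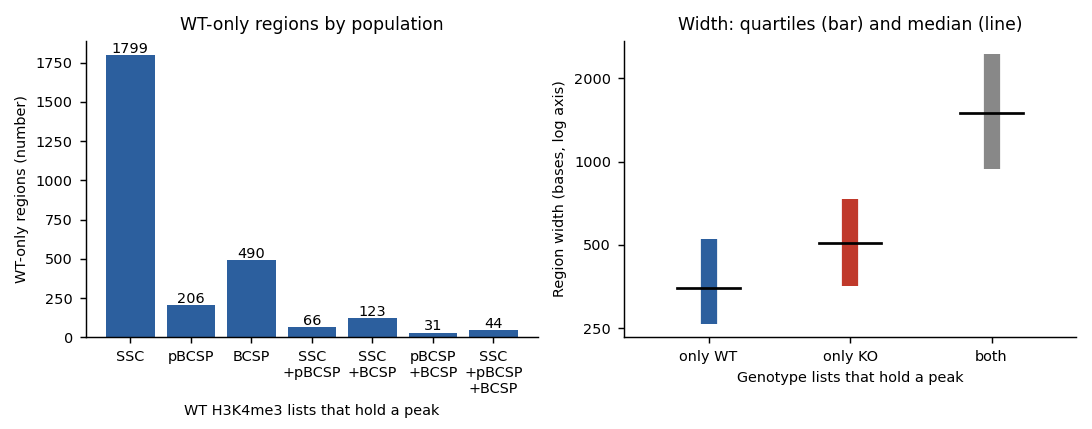
The left panel shows the number of WT-only regions by the WT H3K4me3 lists that hold a peak, and the right panel the width of merged regions in bases on a log axis, with quartiles as bars and medians as lines. SSC alone holds 1799 of the 2759, and the median width is 349 bases in WT-only regions, 508 in KO-only regions and 1497 in regions of both genotypes.

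WT-only regions were narrow and weak, values that describe the peak calls that chose them. Their median width was 349 bases (quartiles 259 and 523, range 229 to 2755). In the SSC WT list the median deposited fold enrichment was 3.08 for peaks in WT-only regions and 6.42 for peaks in regions of both genotypes. The corresponding medians were 3.68 and 8.49 in the pBCSP WT list and 3.49 and 7.71 in the BCSP WT list. A deposited −log10 q of 5 or more was reached by 17 of 2033 such peaks in SSC WT, 30 of 347 in pBCSP WT and 23 of 688 in BCSP WT. With that threshold on the WT peaks, 51 regions remained without a KO peak. KO-only regions had median KO folds of 3.08, 3.66 and 3.72 in the SSC, pBCSP and BCSP KO lists.

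Some WT-only regions lay close to a KO peak, a distance given here without a reference class. The median distance from a WT-only region to the nearest KO peak was 6224 bases, and 449 regions (16.3%) had one within 1000 bases. Just inside the rule were chr15:7949185-7949462 in Wdr70, 1 base from a KO peak, chr11:86953759-86954497 in Ypel2, 2 bases away, and chr15:36381098-36381682, 3 bases away. Just outside it were chr7:80766351-80767065 in Iqgap1, where a BCSP KO peak and a SSC WT peak shared 3 bases, and chr4:130043574-130044716 in Gm12963 and chr8:47825463-47826075 at Cldn22, where KO and WT peaks shared 7 bases each. These 6 regions had WT folds of 2.76 to 3.50, so the boundary of the set runs through WT peaks of like strength. The KO peaks just outside it had folds of 5.26 (BCSP KO, Iqgap1), 2.92 (SSC KO, Gm12963) and 2.84 (SSC KO, Cldn22).

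Gene starts were uncommon among WT-only regions. Of 2672 WT-only regions on chromosomes with annotated starts, 130 (4.87%, exact Clopper-Pearson 95% interval 4.08 to 5.75, counting error alone) lay within 1000 bases of a start and 42 (1.57%) held one. The shares within 1000 bases were 4.95% for KO-only regions and 37.1% for regions of both genotypes. Within 5000 bases they were 18.1%, 14.2% and 44.1%. A gene span held 1964 WT-only regions (71.2%), 64.4% of KO-only regions and 77.7% of regions of both genotypes, and whether these positions are exonic or intronic was not analysed here. The table of starts covers 27025 of 33698 protein-coding and lncRNA genes, and 9.21% of WT-only regions lay within 1000 bases of either end of a gene span, against 9.01% of KO-only regions and 44.5% of regions of both genotypes.

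H3K4me1, which the rule did not use, was present at most WT-only regions in KO cells as well as in WT cells. At least 1 KO H3K4me1 list had a peak at 2414 of the 2759 (87.5%, exact 95% interval 86.2 to 88.7) and at least 1 WT list at 2365 (85.7%, 84.4 to 87.0). Both intervals hold counting error alone and do not compare the genotypes. At regions of both genotypes these shares were 97.45% (KO) and 94.9% (WT), and at KO-only regions 93.6% and 85.2%. The share by list was 78.7% in SSC KO and 66.3% in SSC WT, 79.4% in pBCSP KO and 81.3% in pBCSP WT, and 77.8% in BCSP KO and 76.9% in BCSP WT. The H3K4me1 lists held 115704 peaks in SSC KO and 75277 in SSC WT, the shortest of the 6, and at regions of both genotypes their shares were 92.2% in SSC KO and 74.4% in SSC WT. The part of list length in these shares was not tested. All 6 H3K4me1 lists had a peak at 1550 WT-only regions (56.2%), and none did at 283 (10.3%), against 2.14% of regions of both genotypes. H3K4me1 was called in WT and not in KO at 62 WT-only regions (2.25%) and in KO and not in WT at 111 (4.02%). At regions of both genotypes these shares were 0.405% and 2.92%, and at KO-only regions 0.657% and 9.10%. With 1 H3K4me1 list a group, the 3 pairs cannot reach a two-sided exact p below 0.25, and no test was made. H3K4me1 peaks with a deposited −log10 q of 5 or more were found at 22.2% of WT-only regions in a KO list and at 16.9% in a WT list.

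H3K4me1 peaks of all 3 WT lists and of no KO list were found at 5 WT-only regions (0.181%). The same held for 3 regions of both genotypes (0.00862%) and 0 KO-only regions. Of the 5 WT-only regions, 1 was also called for H3K4me3 in all 3 WT lists, at chr9:75764732-75765495 in the lncRNA gene Gm39373 and 922 bases from its start. Its H3K4me3 folds were 3.22, 3.32 and 3.46 in SSC, pBCSP and BCSP WT, and the nearest KO H3K4me3 peak was 4119 bases away.

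**Figure D2:**
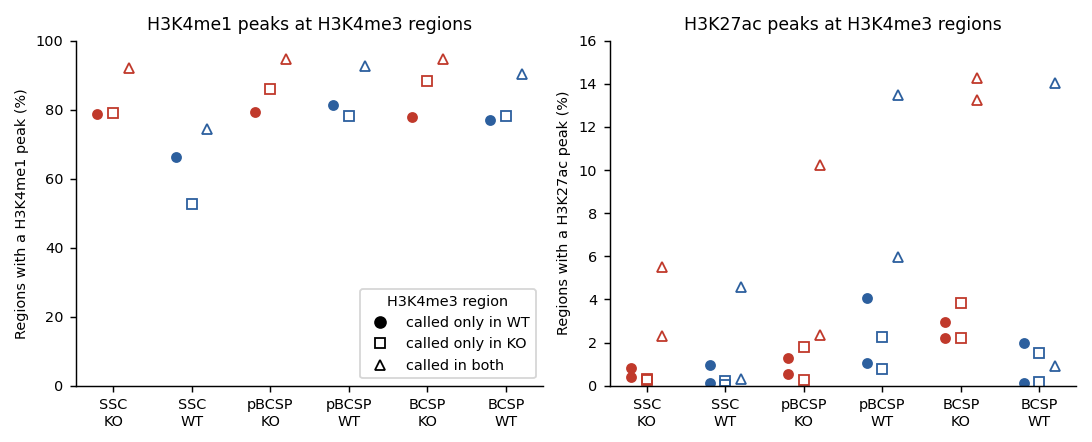
Each point is the share of H3K4me3 regions, in percent, with a peak of 1 H3K4me1 list (left) or 1 H3K27ac list (right), KO lists in red and WT lists in blue, and filled circles are WT-only regions. H3K4me1 covers 66.3 to 81.3% of WT-only regions over the 6 lists, and H3K27ac at most 4.06%.

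H3K27ac peaks were uncommon at WT-only regions in both genotypes. Their share averaged 1.37% over the KO lists and 1.38% over the WT lists, a difference of -0.01 percentage points ± 1.80 (SD over 6 pairs of population and library set), with KO higher in 3 of 6 pairs. The exact paired permutation test gave p = 1 (two-sided, smallest possible p 0.03125), which does not show that the shares are alike. By pair, SSC had 0.834% and 0.399% in KO and 0.942% and 0.109% in WT. In pBCSP the shares were 1.27% and 0.544% in KO and 4.06% and 1.05% in WT, and in BCSP 2.21% and 2.97% in KO and 1.99% and 0.145% in WT. The library sets are the first and the second H3K27ac list of each group, and their peak calls were unlike. Median peak widths were 439 to 535 bases in the first set and 200 to 277 bases in the second. The lowest −log10 q was 1.02 to 1.15 in the first set and 2.02 to 3.15 in the second, and the averages pool both. The H3K27ac lists held 137 to 8572 peaks, and the genotype with more peaks had the higher share in 5 of the 6 pairs, a relation whose part in the result was not tested. At regions of both genotypes the averages were 7.98% in KO and 6.55% in WT. These shares count any overlap, and regions of both genotypes were wider (median 1497 bases, against 349 in WT-only regions). With 50% of the region covered, the averages at regions of both genotypes were 0.658% in KO and 0.556% in WT. At WT-only regions they were then 0.719% in KO and 0.779% in WT.

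Regions called in all 3 WT lists lay on chromosome X more often than the other classes, as a description of the calls. Of these 44 regions, 10 (22.7%) were on chromosome X, compared with 1.76% of WT-only regions called in 1 list, 3.18% of those in a pair of lists, 1.87% of KO-only regions and 2.54% of regions of both genotypes. H3K4me1 was absent from all 6 lists at 21 of the 44 (47.7%), against 9.34% of regions called in 1 WT list. On chromosome X that count was 8 of 10, and on the other chromosomes 13 of 34.

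A pair of X-linked loci accounted for 8 of these 10 regions. The first is 4933407K13Rik, also named Dxz4, a lncRNA locus with a tandem repeat that anchors the folding of the inactive X chromosome. The second is Firre, a lncRNA gene with internal repeats that also contacts the inactive X. The cluster at 4933407K13Rik ran from chrX:75723532 to 75759200 with 6 WT-only regions, 5 of them in all 3 WT lists. Its regions chrX:75754003-75754386, chrX:75749078-75750479, chrX:75729626-75730061 and chrX:75758872-75759200 had folds of 3.62 to 6.49 in SSC WT, 5.42 to 5.80 in pBCSP WT and 5.43 to 6.61 in BCSP WT. The start of 4933407K13Rik itself was called in all 6 lists, with folds of 13.8, 11.1 and 16.8 in SSC, pBCSP and BCSP KO and 14.5, 16.2 and 15.5 in SSC, pBCSP and BCSP WT. Inside its span (chrX:75725458-75764699) the KO lists held 3, 1 and 2 H3K4me3 peaks and the WT lists 9, 9 and 10.

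At Firre (chrX:50563120-50635321) the KO lists held 14, 5 and 16 H3K4me3 peaks and the WT lists 19 each. Its WT-only regions chrX:50594740-50595176, chrX:50619705-50620785 and chrX:50569369-50569715 had folds of 3.79 to 4.31 in SSC WT, 3.35 to 4.70 in pBCSP WT and 4.43 to 4.73 in BCSP WT. The other 16 regions of the span were called in both genotypes. At the Firre start, folds were 13.7, 11 and 15.4 in KO lists and 12, 12.1 and 12.5 in WT lists. H3K4me1 peaks in the span numbered 1, 1 and 3 in the KO lists and 3, 17 and 12 in the WT lists. The starts of both loci were called in every list. Of the 8 regions, 7 lay inside the spans, and chrX:75723532-75724236 lay beyond the end of 4933407K13Rik.

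**Figure D3:**
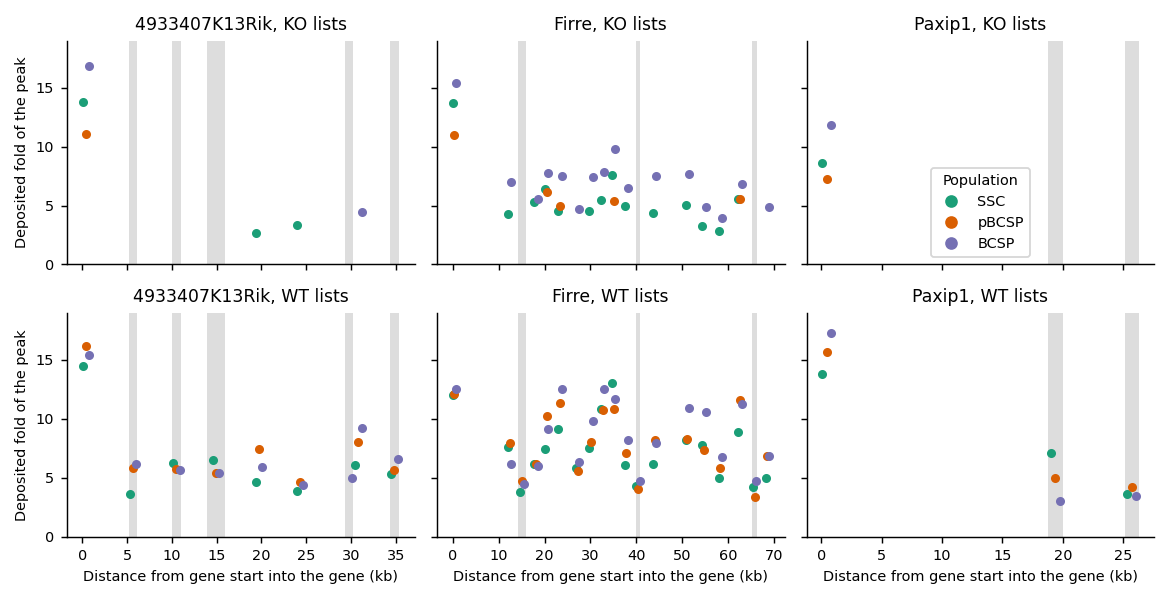
Deposited fold of each H3K4me3 peak against the distance in kilobases from the gene start into 4933407K13Rik, Firre and Paxip1, with the KO lists above, the WT lists below, colours for populations and grey bands for WT-only regions. The peak at each start appears in all 6 lists, whereas peaks in the grey bands appear in WT lists.

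Transcripts of the X and Y chromosomes also differed between libraries. Xist, the RNA that coats the inactive X of female cells, has its start in chrX:103479909-103484300, which was called in every list with folds of 6.16, 4.91 and 8.18 in KO and 14.7, 13.9 and 17.4 in WT. In CPM, read counts scaled to library size, Xist RNA was 0.139 and 1.83 in the SSC KO libraries and 0 in the other 4 KO libraries, against 9.74, 13 and 14.4 in the first WT replicate of each population and 0 in the second. A count of 0 there allows 0.136 to 0.189 CPM. The Y-linked Ddx3y was read in every library, at 111 to 188 CPM in KO and 77.9 to 204 CPM in WT, and the H3K4me3 lists held 22, 15 and 18 peaks on chromosome Y in KO and 14, 17 and 19 in WT. The share of female cells in the H3K4me3 libraries cannot be told apart from genotype, and its part in the X-linked regions was not tested. Without chromosomes X and Y, 2695 WT-only regions remained. Neither locus passed the RNA test: Firre averaged a log2 difference of 0.35 ± 0.34 SE (KO minus WT, adjusted p = 0.598, edgeR) and 4933407K13Rik 1.08 ± 0.55 (adjusted p = 0.311). Firre moved to 0.029 without pBCSP KO replicate 2 and to 0.55 without pBCSP KO replicate 1. 4933407K13Rik moved to 0.50 without SSC KO replicate 2, to 0.48 without pBCSP KO replicate 2 and to 1.34 without SSC KO replicate 1. Its call depended on the libraries kept.

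The targeted gene held another pair of regions called in all 3 WT lists. Paxip1 (chr5:27740080-27791672) had 3 H3K4me3 regions in its span. Its start, chr5:27789837-27792652, was called in all 6 lists, with folds of 8.60, 7.23 and 11.8 in SSC, pBCSP and BCSP KO and 13.9, 15.6 and 17.3 in SSC, pBCSP and BCSP WT. The other 2 regions were WT-only: chr5:27771993-27772577, with folds of 7.06, 4.98 and 3.03, and chr5:27765695-27766253, with folds of 3.60, 4.24 and 3.41. Neither had a H3K4me1 peak in any list, and the nearest KO H3K4me3 peak was 17259 and 23583 bases away. The labels do not say which part of the gene is floxed. Paxip1 RNA ran from 0 to 3.48 CPM in the 6 KO libraries, where 0 allows up to 0.166 CPM, against 7.25 to 14.6 CPM in the 6 WT libraries, and fell by 4.52 ± 0.76 log2 (SE, edgeR adjusted p = 0.0396).

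The strongest WT-only region in all 3 WT lists was chr10:72297053-72297478, with folds of 9.73 in SSC, 15.4 in pBCSP and 15.2 in BCSP WT. It lay in no gene span, 219294 bases from the start of Gm34609 and 356564 bases from the nearest KO peak, and had no H3K4me1 peak in any list. Next by lowest fold among the autosomal ones came chr3:92429124-92429476, 3106 bases from the start of Sprr2k, a gene of the epidermal cornified envelope family, with folds of 5.52, 5.99 and 5.82. Then followed chr1:17163713-17164042 in Gdap1, a mitochondrial protein gene, with folds of 4.91, 5.44 and 6.87, chr10:44112233-44112581 in Crybg1 with 5.82, 6.37 and 4.22, and chr13:43277639-43277897 in Gfod1 with 3.88, 4.52 and 4.48. The Gdap1 and Crybg1 regions had H3K4me1 in all 6 lists, and the Sprr2k and Gfod1 regions in none. Isolated WT peaks without H3K4me1 and WT peaks on H3K4me1-marked chromatin both occurred among the most repeatable members. After chr10:72297053-72297478, the highest fold in the pBCSP WT list was 7.18, at chr4:144586171-144586512. That region was also called in BCSP WT (6.545) and had no H3K4me1 peak in any list. Then came chr8:47811030-47811468 with 6.65, also called in SSC WT (3.52), with H3K4me1 in all 6 lists.

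The widest WT-only regions were chr4:149301944-149304698 in Kif1b, a kinesin motor gene, at 2755 bases, chr13:92593589-92595883 near Serinc5 at 2295, chr3:51661263-51663437 at Mgst2, a glutathione transferase gene, at 2175, chr19:5749073-5750955 in Ltbp3, which binds latent TGF-beta, at 1883, and chr9:123467361-123469194 in Gm40586 at 1834. They were called in 1 or 2 WT lists with folds of 2.93 to 4.13, and all had H3K4me1 in the 3 KO lists and in 2 or 3 WT lists. The Kif1b region ended 592 bases from a KO peak.

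Genes of cartilage held many WT-only regions in their spans. Of 19 chondrocyte genes listed, 9 held at least 1 (47.4%), with 25 regions in all: Acan, the aggrecan core protein, held 4, Sox6 5, Sox5 and Col11a1 4 each, Col11a2 3, Hapln1 2, and Col2a1, Col9a1 and Chad 1 each. Sox5 and Sox6 encode partners of Sox9 in chondrocytes, and the collagen genes encode cartilage fibrils. Over all 15116 protein-coding and lncRNA genes tested for RNA, 1310 (8.67%) held one, with 2.00 regions per megabase of span against 11.6 for the chondrocyte genes. KO-only regions were held by 9 of the 19 chondrocyte genes as well (47.4%), though not by Col2a1 or Chad, at 11.2 per megabase against 8.08 over all genes tested, of which 22.2% held one. All 19 also held a region of both genotypes. Of 18 glycolysis genes, 5 held a WT-only region (Slc2a1, Hk1, Aldoc, Pgam1 and Pkm) and 2 a KO-only region. That WT-only count was 2 when regions within 1000 bases were merged or the SSC pair was left out. It was 1 with a −log10 q of 5 or more in every list and 0 for regions called in 2 or more WT lists. Without the BCSP pair, 5 of the glycolysis genes held a WT-only region and 5 a KO-only region.

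The chondrocyte figures varied with the choice of regions. Those of the 2 classes were unequal under some choices and equal or close under others. For regions called in 2 or more lists of their genotype, 3 of 19 genes held a WT-only region (0.913% of all genes tested) and 1 a KO-only region (6.63%). With a −log10 q of 5 or more in every list, the counts were 3 for WT-only regions (1.92%) and 7 for KO-only regions (12.7%). With lists cut to equal length they were 7 (9.09%) and 4 (8.96%), and without the SSC pair 8 (9.27%) and 5 (15.8%). They were 7 (7.02%) and 6 (20.4%) when regions within 1000 bases were merged. Without the pBCSP pair they were 9 (8.375%) and 9 (22.7%), and without the BCSP pair 10 (8.63%) and 9 (20.5%). Chondrocyte RNA is abundant in these libraries: the 19 genes summed to 84800 to 136000 CPM in KO and 42400 to 121000 CPM in WT libraries. Other lists held a smaller share: none of 16 skeletal and stromal progenitor genes, 3 of 14 osteoblast genes, 5 of 25 BMP and TGF-beta genes, 2 of 40 Wnt genes and none of 39 Hox genes held a WT-only region, while 3, 4, 10, 11 and 3 of these lists' genes held a KO-only region.

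**Figure D4:**
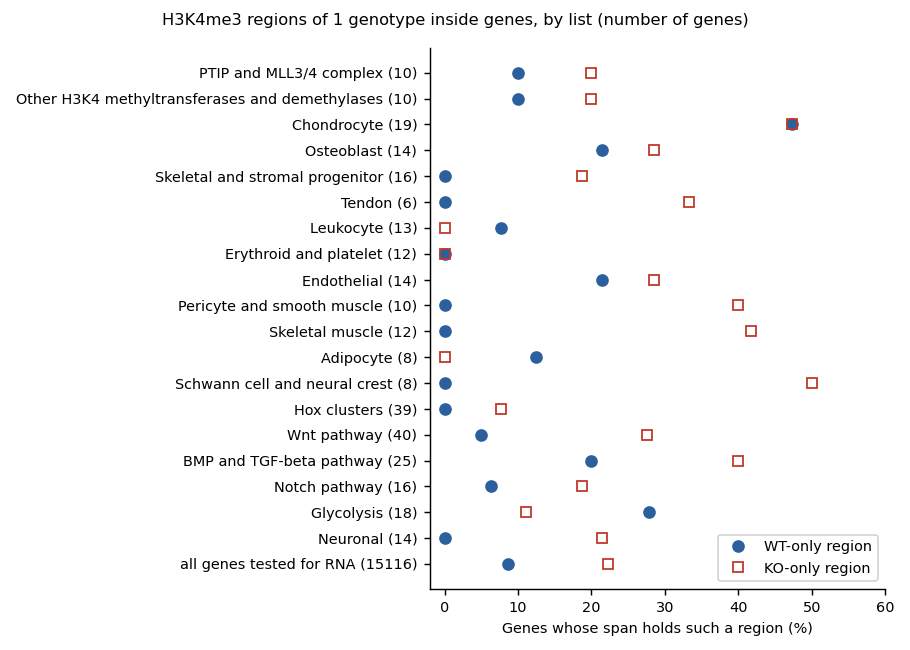
Share of the genes of each list, in percent, whose span holds at least 1 WT-only region (filled circles) or KO-only region (open squares), with the number of genes in parentheses. The chondrocyte list stands at 47.4% for both, against 8.67% and 22.2% of all genes tested.

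Of the 9 chondrocyte genes with a WT-only region in their span, 4 had higher RNA in KO libraries and 5 did not pass the test, while 8 of the 10 listed genes without such a region were called higher. The median log2 differences were 1.01 with and 1.47 without a WT-only region, and the difference between the 9 and the 10 genes was not tested. Col11a2 ran from 1240 to 2750 CPM in the 6 KO libraries and from 493 to 1160 CPM in the 6 WT libraries, without overlap, and rose by 1.41 ± 0.23 log2 (SE, adjusted p = 0.0357, edgeR's quasi-likelihood test with Benjamini-Hochberg adjustment). Sox5 ran from 166 to 411 CPM in KO and 79.7 to 206 CPM in WT libraries and rose by 1.07 ± 0.21 log2 (adjusted p = 0.0495). Col9a1 and Hapln1 also rose, by 1.16 ± 0.21 log2 (adjusted p = 0.0484) and 1.01 ± 0.19 log2 (adjusted p = 0.049). Acan (1.14 ± 0.25, adjusted p = 0.0657), Sox6 (0.76 ± 0.17, 0.0727) and Col11a1 (0.83 ± 0.20, 0.0777) did not pass. Col2a1 itself, at 23100 to 42300 CPM in KO and 21100 to 58100 CPM in WT libraries, differed by -0.07 ± 0.24 log2 (adjusted p = 0.9), and Chad by 0.02 ± 0.40 (adjusted p = 0.987). Over all 17494 genes tested 1.17% were called, 0.966% as higher in KO and 0.206% as lower. The higher RNA of chondrocyte genes was known when the list was applied and is not independent evidence.

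These calls rest on libraries that may not be independent. Deviations from the group mean were correlated between same-numbered libraries of different populations, by 0.293 to 0.488 within KO and 0.28 to 0.334 within WT, so 6 libraries per genotype may stand for fewer samples, and p-values averaged over populations may be too small. When 1 library was left out, 0 of all genes passed in 8 of the 12 cases: either SSC WT, pBCSP WT or BCSP WT library, pBCSP KO replicate 2 or BCSP KO replicate 2. Without SSC KO replicate 1, where 32.0% of all genes passed, Acan (adjusted p = 0.00441), Sox6 (0.00541) and Col11a1 (0.0103) passed as well, and Acan also without BCSP KO replicate 1 (0.0347). In bulk samples, more or fewer cells of a type and more or less RNA per cell cannot be told apart.

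Among the genes that held most WT-only regions outside the lists, Prkg1, a cGMP-dependent kinase gene, held 7 in a span of 1201 kb, Septin9 6, and Edil3, an extracellular matrix protein gene, and Itpr2, a calcium channel gene of the endoplasmic reticulum, 5 each. Chst11, which sulfates chondroitin, held 4. Edil3 was 51.7 to 171 CPM in KO and 18 to 52.2 CPM in WT libraries and did not pass (1.56 ± 0.31 log2, edgeR adjusted p = 0.0521). The call of Edil3 depended on the libraries kept. Chst11 was 39.2 to 119 CPM in KO and 17.0 to 48.3 CPM in WT libraries and rose by 1.16 ± 0.20 log2 (adjusted p = 0.0443). In both genes the groups overlapped in their ranges. Over the 1310 tested genes whose span held a WT-only region, the median log2 difference was -0.15, beside -0.09 over all genes tested, with 24 called as higher (1.83%, against 0.966% of all genes) and 6 as lower (0.458%, against 0.206%).

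A start within 1000 bases of a WT-only region was found for 130 genes, 65 protein-coding and 65 lncRNA genes. Of these, 91 matched the count table and 54 passed the filter on low counts. A start at a region called in KO was also present in 29 of the 130. Among genes at a WT-only region and no region called in KO, 35 of 67 in the count table passed the filter (52.2%), against 86.7% at regions of both genotypes, 36.9% at KO-only regions and 10.8% at no H3K4me3 region. Counts were not divided by gene length, so no levels are compared between these classes.

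RNA of the 54 tested genes showed no common direction. Their median log2 difference averaged over populations was 0.03 (quartiles -0.80 and 0.92), beside -0.09 over all genes tested, with 28 above and 26 below 0. Of the 54, 2 passed in edgeR, both higher in KO (background 0.966%), and 0 as lower (background 0.206%). At an unadjusted p under 0.05 there were 14, or 25.9%, against 19.6% of all genes. DESeq2 called 8 of the 54 as higher and 2 as lower in KO. Of all 17494 genes it called 1051 as higher and 642 as lower, or 9.68% in either direction. By population 0 genes passed in edgeR in SSC, pBCSP or BCSP (background 0.0% each), with 7, 10 and 4 at an unadjusted p under 0.05 (backgrounds 9.38%, 6.27% and 6.25%). DESeq2 called 0, 0 and 1 (backgrounds 1.1%, 0.613% and 0.894%). The medians were -0.42, 0.19 and 0.26, beside -0.22, -0.03 and -0.01 over all genes.

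Aldoc, an aldolase of glycolysis, passed. Its WT-only region chr11:78324151-78324649 was called in SSC WT with a fold of 2.87 and held a start. A KO peak lay 501 bases from the region and within 1000 bases of that start. No H3K4me1 list had a peak in the region. In SSC its RNA was 73.5 and 143 CPM in KO against 46.9 and 9.97 CPM in WT, in pBCSP 119 and 161 CPM in KO against 35.9 and 14.9 CPM in WT, and in BCSP 139 and 239 CPM in KO against 41.4 and 15.8 CPM in WT. All 6 KO libraries lay above every WT library. The rise was 2.37 ± 0.45 log2 (SE, edgeR adjusted p = 0.049).

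Cbr2, a carbonyl reductase, also passed. Its region chr11:120731909-120732516 was called in SSC WT with a fold of 2.76, held the start and had H3K4me1 in all 6 lists. In SSC its RNA was 17.7 and 32.0 CPM in KO against 9.80 and 3.82 CPM in WT, in pBCSP 22.2 and 17.7 CPM in KO against 9.48 and 4.32 CPM in WT, and in BCSP 13.5 and 32.0 CPM in KO against 4.49 and 4.55 CPM in WT. Again all 6 KO libraries lay above every WT library, with a rise of 1.91 ± 0.38 log2 (edgeR adjusted p = 0.0499). The calls of Aldoc and Cbr2 were lost when any 1 library other than SSC KO replicate 1 or BCSP KO replicate 1 was left out, with DESeq2's size factors in edgeR and with pBCSP and BCSP alone, and their adjusted p reached 0.214 and 0.217. Without SSC KO replicate 1, which leaves the SSC KO library with reads in the fewest genes (13987), 20 of the genes passed and 32.0% of all genes did. Among them were Rlbp1, Ak1, BC006965, Hpn, Npy4r, Plac8 and Cd68, described next.

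Rlbp1, a retinaldehyde-binding protein gene, had the smallest p of those that did not pass. Its region chr7:79386274-79387308 was 1035 bases wide, held the start and was called in SSC and BCSP WT with folds of 2.96 and 3.72, with H3K4me1 in all 6 lists. RNA was 7.62 and 25.4 CPM in SSC KO against 9.05 and 2.75 CPM in SSC WT, 14.1 and 28.0 CPM in pBCSP KO against 6.41 and 0.918 CPM in pBCSP WT, and 24.2 and 69.2 CPM in BCSP KO against 3.25 and 1.91 CPM in BCSP WT. The groups overlapped in SSC and not in pBCSP or BCSP (2.72 ± 0.60 log2, adjusted p = 0.0671).

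The other positive differences nearest to the threshold were those of Ak1, an adenylate kinase gene (1.20 ± 0.30 log2, adjusted p = 0.0885), the lncRNA gene BC006965 (1.84 ± 0.46, 0.0888), Hpn, a membrane serine protease gene (2.58 ± 0.76, 0.121), and H6pd, a dehydrogenase gene of the endoplasmic reticulum (0.72 ± 0.22, 0.128). BC006965 ran from 6.31 to 15.9 CPM in KO and from 0.843 to 5.30 CPM in WT libraries without overlap. Hpn reached 32.9 CPM in SSC KO replicate 2, against 1.04 to 5.48 CPM in the other KO libraries and 0.506 to 1.73 CPM in WT libraries, and its difference was 1.55 log2 without that library.

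The negative differences nearest to the threshold were in genes with few reads or with spread between replicates. Npy4r, a receptor gene of the neuropeptide Y family, had no read in the SSC and pBCSP KO libraries, where 0 allows 0.136 to 0.208 CPM, and 0.316 and 0.791 CPM in BCSP KO, against 0.173 to 0.756 CPM in WT (adjusted p = 0.101). Plac8 was read at 0 to 1.95 CPM in KO and from 0.519 to 4.27 CPM in WT (adjusted p = 0.151), and its difference went past the threshold at -4.26 log2 without SSC KO replicate 1 (0.006). Hrct1 ran from 4.48 to 17.0 CPM in KO and from 16.2 to 24.1 CPM in WT (-0.90 ± 0.32 log2, adjusted p = 0.177), and Gpr146, a G protein-coupled receptor gene, from 3.22 to 11.8 CPM in KO and 6.63 to 18.1 CPM in WT (-0.77 ± 0.34, 0.256, and -1.19 without pBCSP KO replicate 2). In all 4 the ranges of the genotypes overlapped.

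Dmp1, which encodes a matrix protein of osteocytes, was the gene of the osteoblast list with a start near a WT-only region, chr5:104201781-104202150, called in SSC WT with a fold of 3.68 and 467 bases from the start. In SSC its RNA was 24.9 and 50.2 CPM in KO against 89.3 and 146 CPM in WT, in pBCSP 1.89 and 0 CPM in KO against 2.85 and 7.83 CPM in WT, and in BCSP 39.2 and 22.8 CPM in KO against 26.0 and 35.5 CPM in WT. The groups did not overlap in SSC and pBCSP and overlapped in BCSP (-1.39 ± 0.63 log2, adjusted p = 0.262). Without pBCSP KO replicate 1 the difference was -3.74 log2 (adjusted p = 0.0567). The osteoblast list as a whole summed to 9000 to 24400 CPM in KO and 17900 to 48500 CPM in WT libraries, and its part in the Dmp1 values was not tested.

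Cd68, a lysosomal glycoprotein of macrophages, was the gene of the leukocyte list. Its region chr11:69665950-69666394 was called in SSC WT with a fold of 2.94 and held the start, in a gene whose span had no region of both genotypes. RNA was 4.57 and 0 CPM in SSC KO against 3.75 and 5.97 CPM in SSC WT, 4.61 and 0.362 CPM in pBCSP KO against 5.52 and 6.59 CPM in pBCSP WT, and 3.37 and 0.365 CPM in BCSP KO against 3.65 and 6.29 CPM in BCSP WT. The second KO replicates were low and the first close to WT (-1.26 ± 1.00 log2, adjusted p = 0.514). The difference was -4.05 log2 without SSC KO replicate 1, where it passed (adjusted p = 0.0209), -2.17 without pBCSP KO replicate 1 (0.302) and -2.05 without BCSP KO replicate 1 (0.339). The 13 leukocyte markers summed to 13.5 to 33.0 CPM in KO and 9.62 to 25.8 CPM in WT libraries, with Cd3e at 0 in every KO library, where 0 allows 0.136 to 0.208 CPM, and their part in the Cd68 values was not tested.

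**Figure D5:**
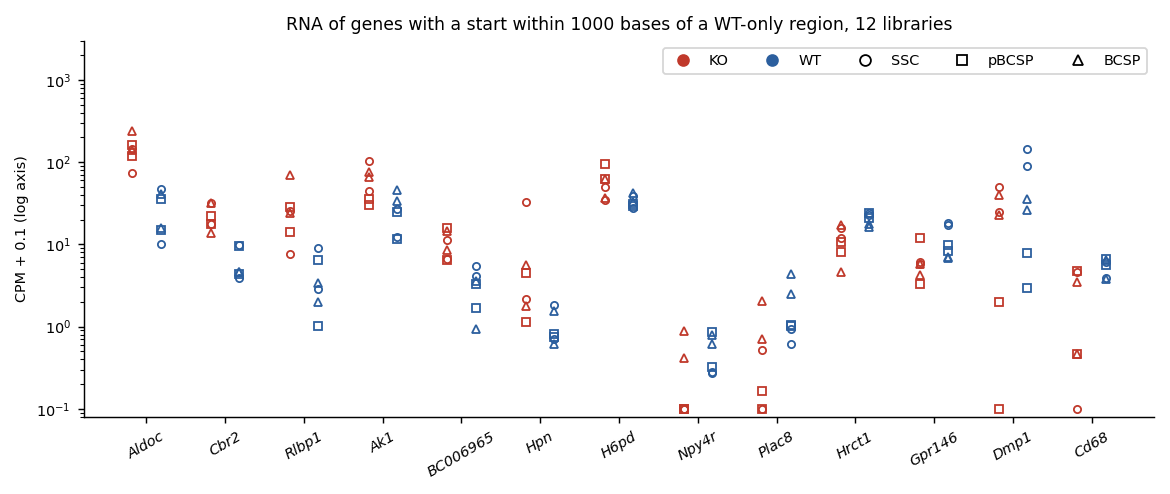
RNA as CPM plus 0.1 on a log axis for 13 genes with a start within 1000 bases of a WT-only region, KO libraries in red on the left and WT libraries in blue on the right of each gene, with 1 symbol per population and 2 libraries per group. Aldoc, Cbr2 and BC006965 have all 6 KO libraries above all 6 WT libraries, and the other genes overlap.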

How the data were processed

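The members, gene lists and tests were chosen with earlier results of these data known. RNA was deposited by the authors as raw read counts of each gene. The ChIP files are peak lists from MNase-digested chromatin, per the labels, 1 per library, in which the authors deposited a fold enrichment (ratio), −log10 p, −log10 q and a score per peak. Tools listed by the submitters' processing notes are MACS2 2.2.6, featureCounts 2.0.1, SAMtools 1.9, Bowtie2 2.3.5.1 and Trim Galore 0.6.6, with the build GRCm38. Neither the peak cutoffs nor the calling runs are described there or in the labels. The lowest −log10 q in the H3K4me3 lists was 1.00 to 1.18. Strand use in counting is not stated either, so overlapping and antisense genes cannot be told from their partners.

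Gene starts came from RefSeq windows of GRCm38.p6, the same build, which hold none for chromosome 18. The 12 RNA libraries held 15495915 to 22670899 counts. They were scaled by TMM, filtered with filterByExpr (17494 genes) and fitted together with 1 mean per group in edgeR 4.0.16 (R 4.3.3, quasi-likelihood test, Benjamini-Hochberg, threshold 0.05, 6 residual degrees of freedom), and KO was set against WT on average and per population. DESeq2 1.42.0 was an alternative. A count of 0 was taken to allow 3 counts. CPM uses TMM library sizes. Same-numbered libraries of a genotype were correlated across populations and were not blocked on. Merging and the RNA fit were tested on simulated data. Named regions were the 10 in the most WT lists with the highest lowest fold, the 5 widest, the 3 highest folds per population and 3 on each side of the rule. Named genes with a start within 1000 bases were those that passed, the 5 smallest p in each direction of the rest, and members of the lists. Genes that hold most regions, and cartilage genes with regions in their span, were named after their values were seen.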

Additional observations from a re-analysis of the deposited data

Results flagged for a closer look

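The share of WT-only regions with an H3K27ac peak moved in opposite directions in pBCSP and BCSP, in both library sets of each, and the difference between the populations was not tested. In pBCSP, KO minus WT was -2.79 percentage points in the first set (1.27% in KO, 4.06% in WT) and -0.51 in the second (0.544% in KO, 1.05% in WT). In BCSP it was 0.22 points in the first set (2.21% in KO, 1.99% in WT) and 2.83 in the second (2.97% in KO, 0.145% in WT). The numbers of peaks in the lists moved with these shares: 4783 and 1105 in pBCSP KO against 6879 and 3811 in pBCSP WT, and 7951 and 8572 in BCSP KO against 6236 and 785 in BCSP WT. Regions of both genotypes showed the same directions in 3 of these 4 pairs, and in the first BCSP set 13.2% in KO against 14.1% in WT. The part of list length in the result was not tested.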

How the results depend on the processing

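The number of WT-only regions was 642 with a −log10 q of 5 or more in all lists, 51 with that threshold in the WT lists, 264 for 2 or more WT lists and, chosen after seeing the data, 5311 for the pBCSP pair alone. Merging within 1000 bases (2259), lists of equal length (3406) and leaving out a population pair (2598 to 3326) kept it within 1.5 times of 2759. The share at a gene start was 18.1% within 5000 bases. H3K4me1 was found at 85.5% (KO) and 83.5% (WT) of WT-only regions with 50% of the region covered, and at 22.2% and 16.9% with a −log10 q of 5 or more. The H3K27ac difference was 0.87 percentage points in the second library set alone, against -0.89 in the first.

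Wider rules for genes at WT-only regions tested more genes. The shares called as higher and as lower in KO were 3.7% and 0% of 54 with starts within 1000 bases. They were 3.36% and 0% of 327 with starts within 5000 bases, and 2.4% and 0.369% of 1084 with the nearest start within 100000 bases. Where the span holds a region they were 1.83% and 0.458% of 1310, against 0.966% and 0.206% of all genes tested. Of the genes at WT-only regions, 2 passed on average. The count was 11 with starts within 5000 bases, 30 with the nearest start within 100000 bases, 30 for genes whose span holds a region (chosen after seeing the data), 1 without genes that have a KO region at a start, 0 with RLE size factors, 11 without a filter, 0 with pBCSP and BCSP alone, 10 with DESeq2 and 0 to 20 without 1 library. All genes called were 205 on average, 140 with RLE size factors, 1882 without a filter, 1693 with DESeq2 and 0 to 6147 without 1 library. With the replicate block 0 of the genes passed, and 141 of all genes. The adjusted p was then 0.0595 for Sox5, 0.056 for Col9a1, 0.0617 for Hapln1, 0.0515 for Chst11, 0.0582 for Aldoc, 0.0621 for Cbr2 and 0.0621 for Pgam1, all past the threshold without the block, while Col11a2, Pkm and Paxip1 passed in both. Replicate numbers do not pair KO with WT: the correlation of same-numbered deviations was 0.01 in SSC, -0.02 in pBCSP and -0.08 in BCSP. By population, 4 genes in SSC, 3 in pBCSP and 2 in BCSP passed without a filter, and 1 in BCSP with DESeq2. Without SSC KO replicate 1 the median log2 difference of the genes was -0.82. The RNA alternatives gave 561 values over 33 genes. Only the 10 genes called, with 17 alternatives each, could lose a call, and 115 of their values did. Of the 561 values, 13 turned in direction, those of Col2a1, Chad and Prkg1, none of which passed. Without 1 library Col2a1 ran from -0.18 to 0.053 log2 and Chad from -0.23 to 0.37, and with pBCSP and BCSP alone Col2a1 was 0.21 and Prkg1 -0.082. The 10 genes called kept their direction throughout, and the cause of the lost calls was not tested.

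The H3K4me3 and H3K4me1 lists are 1 per group, so no replicate error bounds a region's class, and the depth of the ChIP libraries is unknown. Reads fell in 13987 genes in SSC KO replicate 2 and in 20965 to 23831 in the other libraries, and the part of this in the calls was not tested.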

Other observations

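Clusters of WT-only regions within 50000 bases of each other were uncommon: 1995 of the 2759 (72.3%) stood alone and 24 clusters held 4 or more. Apart from the 4933407K13Rik and Firre loci, the clusters of 5 or more were 7 regions near Acan (chr7:78980884-79101447), 6 at chr15:97984313-98038685 near Gm41395, 6 near Col27a1, a fibrillar collagen gene (chr4:63185763-63302507), 5 near Itpr2 (chr6:146399579-146486505), 5 near Ltbp3 and Malat1 (chr19:5709265-5821001) and 5 near Chsy1, a chondroitin synthase gene (chr7:66135095-66227839). None of these 6 clusters held a region called in all 3 WT lists, and at Col27a1, Ltbp3 and Chsy1 each region was called in a single list.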
